A study of Mus musculus with 15 samples.

Results

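The comparison described here set the cerebellum (Ce) against the striatum (St) of mice from a line bred for high voluntary wheel running (Hi). It comprised 7 of the 15 RNA-seq samples of the series, the 4 CeHi samples (replicates 0 to 3) and the 3 StHi samples (replicates 0 to 2), chosen by their labels, and every gene in the deposited table. The mice were Hsd:ICR males, labelled as 6 weeks old, and the line is a single selected line. All mice, those of the control line (Co) included, had a running wheel in their cage and were killed on day 7 during the active period. The authors removed 1 StHi sample, which is not analysed here. Each sample was RNA of the whole dissected region, so that fewer cells of a type and less RNA per cell cannot be told apart in any value below. The control-line samples, 4 CeCo and 4 StCo, entered the choice of genes tested, the scaling and the shared estimate of the spread. Otherwise they served only the comparison of the lines at the end.

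The cerebellum and the striatum are both motor structures, and the output neurons of the cerebellar cortex and of the striatum are inhibitory. In the cerebellar cortex very numerous glutamatergic granule cells feed Purkinje cells, whose GABAergic axons leave the cortex, and Bergmann glia accompany the Purkinje cells. The striatum consists mainly of GABAergic medium spiny neurons that receive cortical glutamate and midbrain dopamine, divided into a D1 type with dynorphin and substance P and a D2 type with enkephalin and adenosine receptors encoded by Adora2a, with sparse cholinergic and peptide interneurons among them.

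The values were normalized counts, that is fragments (read pairs) per gene rescaled by the authors so that the samples could be compared, and not divided by gene length. The fragments behind them, recovered from the steps between low values, were 36941631 to 47485535 per CeHi sample and 32909383 to 43092866 per StHi sample. Their means differed 1.10-fold, less than the spread among samples (exact two-sided permutation test, p = 0.40, the smallest possible p with 4 against 3 samples being 0.0571). One fragment was worth 0.841 to 1.30 normalized counts. The Pearson correlation of log2 values across genes was 0.986 to 0.994 between samples of the same region and 0.829 to 0.861 between regions. Genes are not independent replicates, and these correlations only describe the libraries. Whether both regions came from the same mice is not known here, and the p-values measure the spread among these samples.

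Most expressed genes differed between the regions. Of 15213 genes tested, 5386 (35.4%) were over-expressed and 5341 (35.1%) under-expressed in CeHi relative to StHi, together 10727 genes or 70.5%, at a false-discovery-rate adjusted P-value under 0.05 (limma on log2 of the normalized count + 1, Benjamini-Hochberg adjustment over all 15213 genes). The log2 difference, always CeHi minus StHi, passed 1 in 1386 of the over-expressed genes (9.11%) and fell under -1 in 2146 of the under-expressed genes (14.1%). The median log2 difference was 0.01 and the median absolute difference 0.42. As scaled here, the many calls were balanced in number while the large ones lay more often on the striatal side. In 10394 genes (68.3%) no CeHi sample overlapped the StHi samples. Counts of list members below stand against these shares. Under quantile normalization, which shifted the median of all genes by 0.08, the split was 6325 over- and 4679 under-expressed genes. Of these, 1719 passed a log2 difference of 1 and 1920 fell under -1, so both the balance and the striatal excess depended on the scaling.

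**Figure D1:**
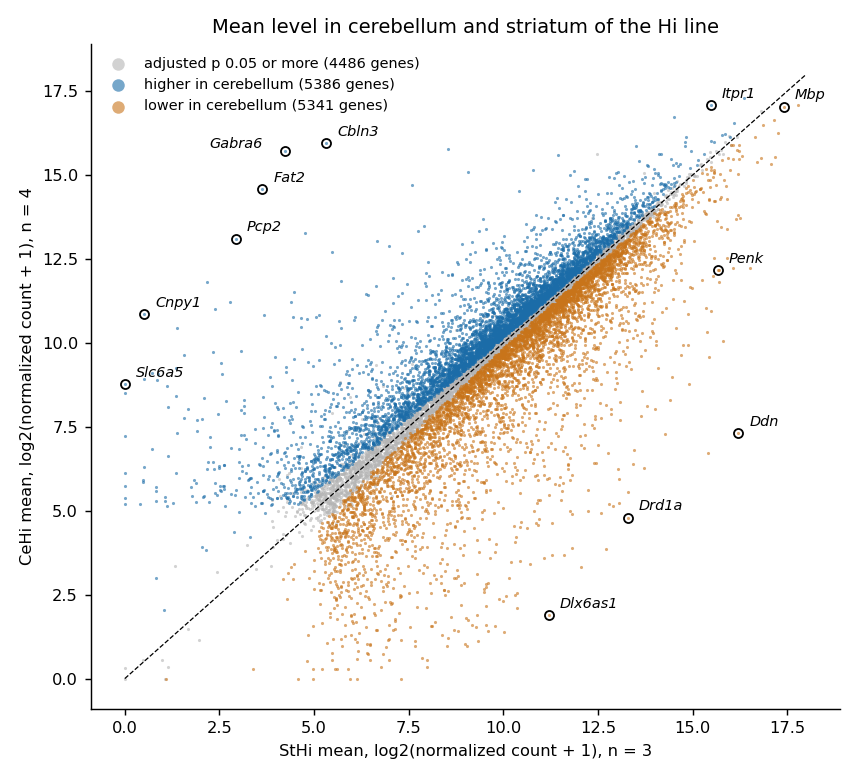
Mean level of each of the 15213 tested genes in StHi (x axis, n = 3) and CeHi (y axis, n = 4), both as log2(normalized count + 1); the dashed line marks equal levels and colours mark the calls. Gabra6, Cbln3 and Fat2 lie farthest above the line, and Ddn, Drd1a and Dlx6as1 far below it.

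Detection in 1 region alone was rare by comparison. A level of at least 1 count per 1000000 fragments in all CeHi samples, with no more than 3 fragments in any StHi sample, was found in 27 genes. The opposite pattern was found in 39 genes, and in 64 genes when CeHi replicate 3 was left aside. In all 7 samples 13373 genes reached that level.

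Genes of granule and Purkinje cells were among the largest positive differences. Gabra6, the GABA-A receptor alpha 6 subunit of granule cells, stood at 61069, 52192, 48245 and 52243 normalized counts in the 4 CeHi samples and at 18.2, 12.6 and 22.6 in the 3 StHi samples. The groups lay far apart, with a log2 difference of 11.50 ± 0.22 (SE, limma, adjusted p = 1.13e-14). Fat2, a giant cadherin of granule cells, differed by 10.99 ± 0.30 (SE, limma, adjusted p = 1.23e-12), Cbln3, a cerebellin secreted by granule cells, by 10.63 ± 0.13 (SE, limma, adjusted p = 6.33e-18), and Pcp2, a Purkinje cell protein, by 10.21 ± 0.38 (SE, limma, adjusted p = 1.75e-11). Pcp2 shares 51.5% of its exonic bases with Pet100, and the sources used here do not state whether the counting used strand. The others among the 10 largest were Cnpy1, Crtam, Nrk, Slc6a5, Dao (D-amino acid oxidase, which is abundant in cerebellar glia) and Ppp1r17, with log2 differences of 10.44, 9.80, 9.35, 8.74, 8.71 and 8.58. Several of these were at or near 0 in striatum. Slc6a5, the glycine transporter of glycinergic neurons, had 417, 555, 364 and 395 normalized counts in CeHi and 0 in each StHi sample, which makes it at least 125-fold higher in cerebellum when 3 fragments per library are taken as the floor. Cnpy1 had 7816 fragments in CeHi against 1 in StHi, a ratio with a 95% counting interval from 890.3 upward (exact binomial, counting error only).

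Forebrain regulators and medium spiny neuron genes were among the largest negative differences. Dlx6as1, a non-coding RNA transcribed through the Dlx5 and Dlx6 locus, stood at 2.52, 3.16, 0.926 and 4.23 in CeHi and at 1940.5, 2812 and 2321 in StHi. It showed the most negative log2 difference of all tested genes, -9.39 ± 0.30 (SE, limma, adjusted p = 4.68e-14). Ddn, which encodes the dendritic protein dendrin, reached 72859.8, 79981 and 73817 in StHi and 159.8, 102, 68.5 and 302 in CeHi. Its difference was -9.11 ± 0.37 (SE, limma, adjusted p = 2.07e-10), although CeHi replicate 3 exceeded the other 3 CeHi samples. Other genes among the 10 were Crym (-8.78), Gpr6 (-8.65), Drd1a (-8.55), Kcnv1 (-8.42) and Dlx6 (-8.40). Dlx6 had at most 3 fragments in any CeHi sample, 8 in all against 2352 in StHi, a ratio of 463 (95% counting interval 235 to 1074).

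All marker genes of cerebellar neurons were over-expressed in CeHi. The marker lists here and below were chosen with earlier results of these data known. Their unanimous direction is therefore no independent test. The granule cell list had 8 of 8 genes higher (median log2 difference 7.62, against 0.01 over all genes), the Purkinje list 8 of 8 (median 6.41), the list of unipolar brush, Golgi and molecular layer interneurons 5 of 5 (median 7.05) and the Bergmann glia list 5 of 5 (median 2.74). No CeHi sample overlapped StHi in any of these genes, which also held for 68.3% of all genes tested. Over all genes 35.4% were over-expressed. Neurod1, a transcription factor that granule cells keep in adulthood, stood at 28821, 27034, 24053 and 26658 in CeHi and 254, 143 and 180.5 in StHi, a difference of 7.14 ± 0.19 (SE, limma, adjusted p = 3.76e-13). Eomes, which marks unipolar brush cells, had 2865, 2602, 2779.7 and 2911 and 22.1, 152 and 70.1, a difference of 5.46 ± 0.60 (SE, limma, adjusted p = 3.66e-06) with the 3 striatal samples spread over a wide range.

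Purkinje markers ranged from nearly exclusive to broadly shared. Car8, which binds the IP3 receptor, stood at 57303, 56281, 56405 and 55203 in CeHi and 361, 385 and 369 in StHi and differed by 7.24 ± 0.07 (SE, limma, adjusted p = 6.90e-21). Calb1 (calbindin) and Itpr1 (the IP3 receptor of calcium stores), which medium spiny neurons also express, differed far less, by 1.85 ± 0.10 (SE, limma, adjusted p = 8.33e-11) and 1.60 ± 0.12 (SE, limma, adjusted p = 6.54e-09). Calb1 still reached 11334, 12452 and 12723 in the striatal samples, against 45274, 44319, 43195 and 42708 in the cerebellar ones. Skor2, a transcriptional corepressor of Purkinje cells, had 2241 fragments in CeHi and 2 in StHi. Among Bergmann glia genes, Gdf10, a secreted TGF-beta family ligand, differed by 3.46 ± 0.16 (SE, limma, adjusted p = 6.24e-11), Hopx by 2.78 and Timp4 by 2.74. The Bergmann list had the smallest median of these 4 lists, and its genes stood at a median of 14.6% to 17.6% of their cerebellar mean in the striatal samples, against 0.329% to 0.641% for the granule list.

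**Figure D2:**
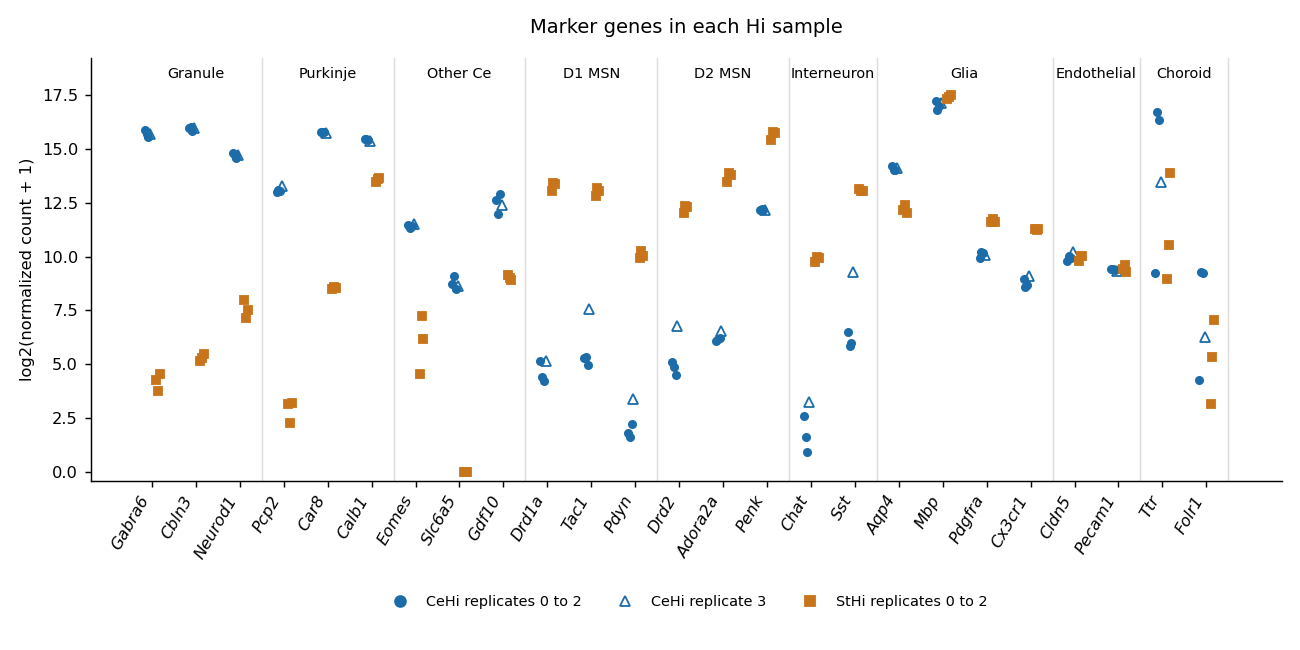
Level of marker genes in each Hi sample as log2(normalized count + 1): blue for the 4 CeHi samples, with replicate 3 as an open triangle, and orange squares for the 3 StHi samples (MSN, medium spiny neuron). The granule and Purkinje genes separate the regions upward and the medium spiny neuron genes downward, Cldn5 and Pecam1 overlap, and Ttr and Folr1 scatter within each region.

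Striatal neuron markers showed the mirror image. Over all genes tested 35.1% were under-expressed in CeHi and 68.3% did not overlap between the groups. All 6 genes of the D1 list (median log2 difference -7.47), all 6 of the D2 list (median -7.19), all 10 shared by both types of medium spiny neuron (median -3.95) and all 6 of the interneuron list (median -6.87) were under-expressed in CeHi, and the groups did not overlap in any of them. Drd1a, the D1 dopamine receptor, stood at 8342, 10858 and 10682 in StHi and 34.5, 20.0, 17.6 and 34.9 in CeHi and differed by -8.55 ± 0.24 (SE, limma, adjusted p = 1.03e-13). Drd2, the D2 receptor, stood at 4125, 5275 and 5113 and 33.6, 28.5, 21.3 and 109 and differed by -6.92 ± 0.42 (SE, limma, adjusted p = 4.48e-09). Adora2a, the adenosine receptor that pairs with D2, differed by -7.46 ± 0.13 (SE, limma, adjusted p = 5.74e-17). Markers of the shared list were less exclusive, and several were still abundant in cerebellum. Ppp1r1b, which encodes DARPP-32, had 5424, 6402, 6114 and 5868 in CeHi and 53644, 66819 and 63803 in StHi, a difference of -3.37 ± 0.10 (SE, limma, adjusted p = 1.17e-14). Of the interneuron genes, Chat, which makes acetylcholine, had 5.05, 2.11, 0.926 and 8.45 in CeHi and 851, 1016 and 976 in StHi and differed by -7.78 ± 0.41 (SE, limma, adjusted p = 4.96e-11).

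One cerebellar library stood apart in 3 of these 4 lists. The median level of the D1 markers, as a percentage of the StHi mean, was 0.400%, 0.335% and 0.355% in CeHi replicates 0 to 2 and 1.44% in replicate 3. For the D2 list the values were 0.594%, 0.561%, 0.492% and 1.07%, and for the interneuron list 0.998%, 0.441%, 0.413% and 1.75%. In the list shared by both types of medium spiny neuron replicate 3 lay among the others, with 6.50%, 5.50%, 6.29% and 6.27%. The same library correlated most with the striatal samples, at 0.856 to 0.861, against 0.829 to 0.841 for the other 3. Its source was not tested. Six3, a forebrain homeobox gene, was carried by it in CeHi, with 5.05, 2.11, 1.85 and 179 in CeHi and 2612, 3139 and 3253 in StHi. Its difference was -8.24 with replicate 3 and -9.64 without it. Without replicate 3 every gene of these 4 lists was still under-expressed, with medians of -7.93, -7.48, -4.07 and -7.36, and the totals were 5344 over- and 5363 under-expressed genes.

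Markers of neighbouring tissue were examined as well. In the cortical pyramidal neuron list 5 of 6 genes were under-expressed in CeHi (against 35.1% of all genes) and Cux2 did not pass (median -4.46). Tbr1, a transcription factor of deep cortical neurons, stood at 3897, 1857 and 3030.3 in StHi and 28.6, 43.3, 45.4 and 38.0 in CeHi, and Fezf2 at 451, 193 and 439 and 1.68, 1.05, 0 and 1.06. StHi replicate 1 held the lowest value of both. The summed level of the list was 4711 to 8802 in StHi and 1736 to 1900.4 in CeHi, and no cortical marker was at 0 throughout either region. How much cortex contributed to the striatal values was not tested. Brainstem genes were too low to be tested, with summed levels of 21.3 to 57.1 in CeHi and 18.5 to 30.9 in StHi. Of the 7 genes, 4 were at 0 in all StHi samples. Tph2 was not lower in StHi, with 20.8, 15.5 and 28.5 there and 11.8, 7.38, 6.48 and 28.5 in CeHi. It made up most of the summed level in StHi.

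Choroid plexus genes varied widely within regions. None of the 6 genes passed the test in limma, against 70.5% of all genes, with 0 at an unadjusted p under 0.05, 0 called by edgeR and 2 by DESeq2 on the recovered fragments. Ttr, the transthyretin of choroid epithelium, was 594, 106230.0, 81975 and 11393 in the 4 CeHi samples and 492, 1496 and 14994 in the 3 StHi samples. The groups overlapped, and the log2 difference was 2.80 (95% confidence interval -1.87 to 7.47, limma, adjusted p = 0.257). Kl, the klotho gene, had 95.9, 2652, 2256 and 323 and 206, 249.6 and 824, and Folr1, a folate receptor, had 18.5, 627, 606 and 75.0 and 7.78, 39.8 and 133. In all 3 genes CeHi replicates 1 and 2 were the highest of the 7 samples.

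**Figure D3:**
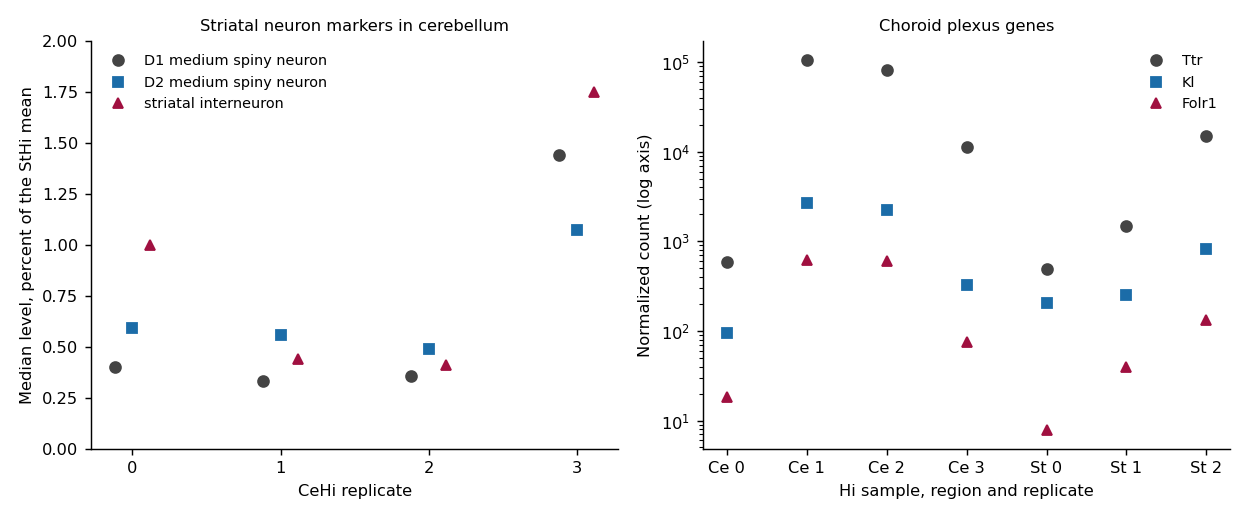
Left, the median level of the D1, D2 and interneuron markers in each CeHi replicate as a percentage of the StHi mean; right, normalized counts (log axis) of 3 choroid plexus genes in each of the 7 Hi samples. CeHi replicate 3 lies above the other cerebellar samples on the left, and on the right the choroid genes rise and fall together across samples of the same region.

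Glial and vascular markers differed in other ways. Their counts stand against 35.1% of all genes under-expressed and 35.4% over-expressed in CeHi. All 6 microglial genes were under-expressed in CeHi (median -2.09), among them Cx3cr1, the fractalkine receptor, at 499, 381, 410.3 and 547 in CeHi and 2468, 2437 and 2469.8 in StHi, a difference of -2.44 ± 0.11 (SE, limma, adjusted p = 5.95e-12). P2ry12 differed by -2.02, Csf1r by -2.11 and Aif1 by -2.76. Both genes of oligodendrocyte precursors were lower too, Pdgfra by -1.55 ± 0.08 (SE, limma, adjusted p = 1.00e-11) and Cspg4 by -1.74 ± 0.11 (SE, limma, adjusted p = 4.84e-10). Of 7 oligodendrocyte genes, 6 were under-expressed and Mog did not pass, except with the replicate block, with sample quality weights and without CeHi replicate 3 (limma, adjusted p = 0.00767, 0.0366 and 0.00439). The differences ran from -1.29 for Olig1, a transcription factor of the lineage, to -0.29, with a median of -0.52, or -0.75 without CeHi replicate 3. Mbp, a major myelin protein, differed by -0.39 ± 0.13 (SE, limma, adjusted p = 0.0149) and did not pass without StHi replicate 2 (limma, adjusted p = 0.0623) or under quantile normalization, where 3 of the 7 genes passed. The astrocyte list split. Aqp4, the water channel of astrocyte endfeet, was higher by 1.89 ± 0.09 (SE, limma, adjusted p = 9.63e-12), S100b by 1.93 and Gja1 by 0.28, whereas the glutamate transporter gene Slc1a2 was lower by -1.75 ± 0.09 (SE, limma, adjusted p = 1.43e-11), and Gfap (0.17, adjusted p = 0.214) and Aldh1l1 (0.27, adjusted p = 0.0576) did not pass. Without StHi replicate 1 both passed (limma, adjusted p = 0.0123 and 0.0478). Aldh1l1 also passed without CeHi replicate 1 (limma, adjusted p = 0.00706) and in 5 other alternatives, so that its call rests on the processing.

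None of the 6 endothelial genes passed the test in limma, against 70.5% of all genes tested, with 0 at an unadjusted p under 0.05 and 0 called by edgeR or DESeq2 on the recovered fragments. Cldn5, a tight junction protein of brain capillaries, was 881, 1026, 966 and 1173 in CeHi and 881, 1051 and 1035 in StHi. The log2 difference of 0.02 had a 95% confidence interval of -0.22 to 0.27, and that of Pecam1, -0.05, an interval of -0.24 to 0.14. Of the red blood cell genes, Hba-a1 was higher in CeHi by 0.86 ± 0.34 (SE, limma, adjusted p = 0.0375), carried in part by replicate 3, whose 3394 stood above 1260.5, 1779 and 1511 in the other 3. It did not pass without that replicate (limma, adjusted p = 0.084, log2 difference 0.57), nor without CeHi replicate 1 or any single StHi sample, with adjusted p-values over all alternatives from 0.0111 to 0.0892. Alas2, an enzyme of haem synthesis, did not pass (0.68, adjusted p = 0.0836), but did in 4 alternatives, among them without CeHi replicate 0 (limma, adjusted p = 0.0462), with a range over all alternatives from 0.0172 to 0.245.

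**Figure D4:**
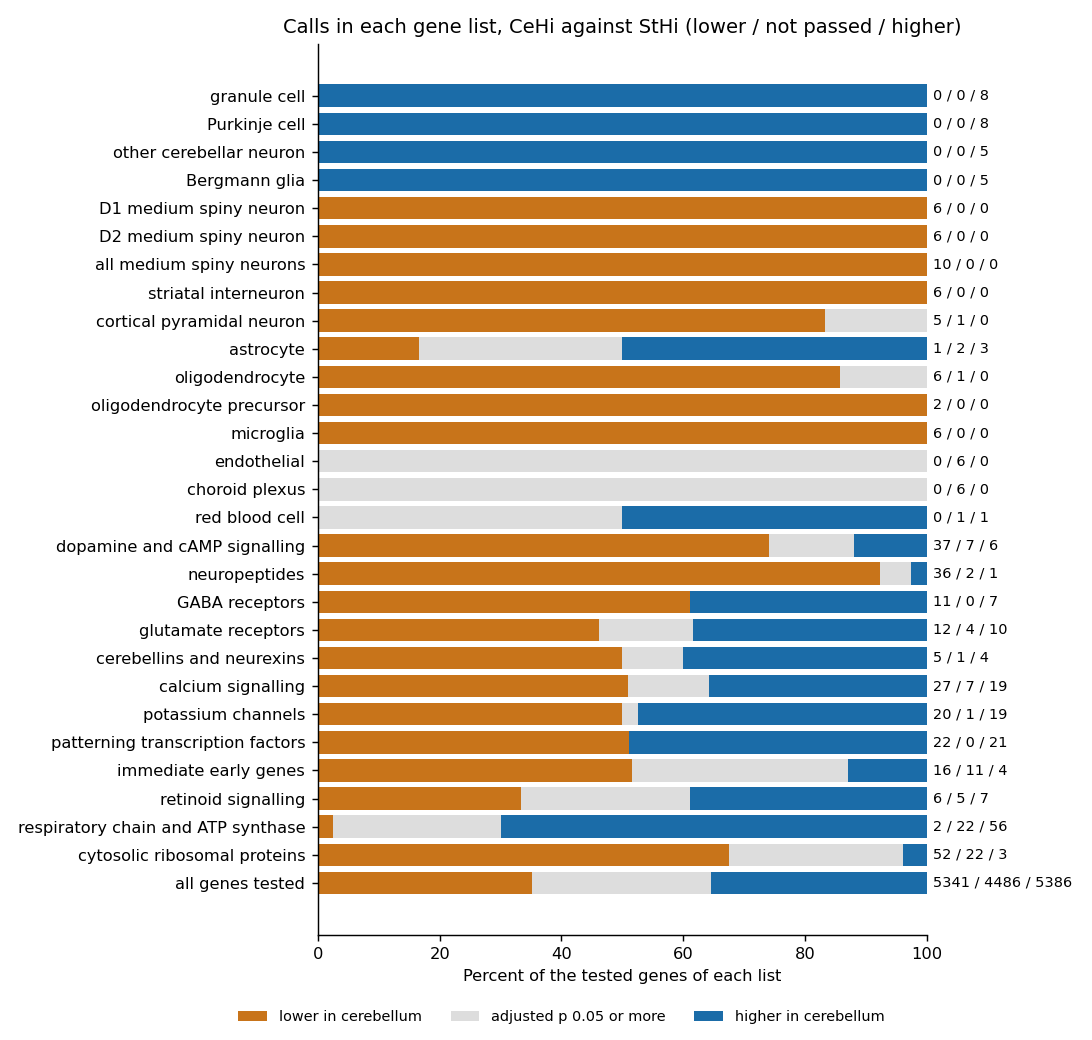
Share of the tested genes of each list that were lower (orange), not called (grey) or higher (blue) in CeHi than in StHi, with the 3 counts beside each bar in that order. The lists of neuronal markers fall to 1 side or the other, the neuropeptide and dopamine lists lie mostly on the lower side, and the channel and receptor lists split.

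The dopamine and cAMP list followed the striatum in most of its genes. Dopamine acts on D1-class receptors, which raise cAMP through Gnal and Adcy5, and on D2-class receptors, which lower it, while phosphodiesterases break cAMP down and RGS proteins end G protein signals. Of 50 genes tested 37 were under-expressed in CeHi (74% against 35.1% of all genes), 6 were over-expressed and 7 did not pass (median log2 difference -1.04). All 4 receptors tested were lower, as were Th (tyrosine hydroxylase) by -1.94 ± 0.20 (SE, limma, adjusted p = 1.91e-07) and the G protein genes Gnal by -1.98 ± 0.11 (SE, limma, adjusted p = 4.73e-11) and Gng7 by -5.75. Slc6a3, the dopamine transporter of midbrain axons, was below the filter, at 2.11 to 6.34 in CeHi and 7.77 to 16.9 in StHi. Drd4, a D2-class receptor, was below it as well but in the opposite order, at 13.5 to 27.5 in CeHi and 3.88 to 5.19 in StHi, and neither gene was tested. The exceptions lay within families. Adcy5 had 2095, 1904, 2092 and 2389 in CeHi and 36309.9, 46084 and 41709.9 in StHi, whereas Adcy1, a calmodulin-stimulated adenylyl cyclase, had 115955, 127537, 97120.4 and 97218 and 26959, 19463 and 23872. Their differences were -4.29 ± 0.09 (SE, limma, adjusted p = 4.32e-16) and 2.22 ± 0.14 (SE, limma, adjusted p = 5.83e-10). In the same way Pde1b (calmodulin-dependent phosphodiesterase) was lower by -5.06 ± 0.13 (SE, limma, adjusted p = 2.47e-14) and its relative Pde1c higher by 1.74 ± 0.14 (SE, limma, adjusted p = 1.32e-08). Rgs9 was lower by -6.08 ± 0.26 (SE, limma, adjusted p = 1.11e-10) and Rgs8, a Purkinje cell RGS protein, higher by 2.37 ± 0.07 (SE, limma, adjusted p = 3.49e-14). Of 9 phosphodiesterases 7 were lower, Pde10a among them by -3.52 ± 0.16 (SE, limma, adjusted p = 5.24e-11), and of 10 kinases, phosphatases and inhibitors 8 were lower and none higher.

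Neuropeptide genes lay almost entirely on the striatal side. Peptide precursors are cut by convertases and trimmed before release, and the products act on G protein-coupled receptors. Of 39 genes 36 were under-expressed in CeHi (92.3% against 35.1% of all genes, median -3.69) and 1 was over-expressed. Pomc and Sstr3 did not pass, except Pomc in the 7 Hi samples alone (limma, adjusted p = 0.0198) and Sstr3 without StHi replicate 1 (limma, adjusted p = 0.0428). Without CeHi replicate 3 the counts were the same. The opioid precursors differed unequally. Pdyn, which makes dynorphin, had 2.52, 2.11, 3.71 and 9.51 in CeHi and 982, 1215 and 1037 in StHi, a difference of -7.80 ± 0.33 (SE, limma, adjusted p = 1.70e-12). Penk, which makes enkephalin, had 4536, 4762, 4639.6 and 4523 and 43236, 56722 and 54840.3, a difference of -3.48 ± 0.13 (SE, limma, adjusted p = 1.29e-12), and it was abundant in both regions. Tac1 (substance P) had 37.8, 39.0, 30.6 and 189 and 7113, 9414 and 8449.6, Sst (somatostatin) 89.1, 57.0, 63.0 and 613 and 8968, 8496 and 8472, and Cartpt (CART peptide) 2.52, 6.33, 1.85 and 3.17 and 774, 807 and 629. CeHi replicate 3 was again the highest cerebellar sample for Pdyn, Tac1 and Sst. The differences were -7.23 for Tac1, -6.18 for Sst and -7.46 for Cartpt. All 3 opioid receptors were lower, Oprk1 by -5.76 ± 0.25 (SE, limma, adjusted p = 9.69e-12), Oprd1 by -4.44 and Oprm1 by -3.96. Processing enzymes, which many neurons need, differed less, with all 5 lower and a median of -1.33. The single gene over-expressed in cerebellum was Crhr1, a corticotropin-releasing factor receptor, with 3669, 3758, 3812 and 3626 in CeHi and 518, 485 and 436 in StHi, a difference of 2.95 ± 0.10 (SE, limma, adjusted p = 6.14e-14).

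The promoters of 5 neuropeptide genes held a palindromic cAMP response element, the CREB binding motif TGACGTCA, within 250 bases before the annotated start. These 5 were found among 33 list genes with a RefSeq window (15.2%), against 345 of 11550 tested genes (2.99%), 2.30% of genes over-expressed with a log2 difference over 1, 2.11% of those under-expressed by as much, and 1.55% of all 32851 windows. The share was 8.77% for ribosomal, 8.33% for immediate early and 6.06% for respiratory genes. It was 4.76% for the dopamine and cAMP list and 3.125% for patterning factors. No motif was found in the GABA, glutamate, cerebellin, calcium, potassium and retinoid lists. Marker lists had few windows, with the motif in Gpr6, Sst and Flt1 alone. The motif was searched after the list values were known, and a match in these letters is no evidence of binding. The windows shown are those of the neuropeptide list with this motif, which belong to 2 precursors, a granin, a convertase and a receptor. All 5 genes were under-expressed in CeHi, as were 92.3% of the whole list, so that their direction says nothing about the motif. They are upstream bases 5′ to 3′ on the gene's strand in GRCm38.p6, with the motif in capitals. Sst lies at chr16:23890845-23891094 (minus strand, motif 48 to 41 bases before the start), Cartpt at chr13:99900684-99900933 (minus, 112 to 105), Scg2 at chr1:79440027-79440276 (minus, 68 to 61), Pcsk1 at chr13:75089607-75089856 (plus, 78 to 71) and Sstr2 at chr11:113619077-113619326 (plus, 58 to 51).
Sst: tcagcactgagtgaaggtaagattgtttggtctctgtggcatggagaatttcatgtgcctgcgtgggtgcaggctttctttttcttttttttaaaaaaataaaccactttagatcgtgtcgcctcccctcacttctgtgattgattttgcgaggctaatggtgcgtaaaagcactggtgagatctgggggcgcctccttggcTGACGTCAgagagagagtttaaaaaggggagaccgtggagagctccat
Cartpt: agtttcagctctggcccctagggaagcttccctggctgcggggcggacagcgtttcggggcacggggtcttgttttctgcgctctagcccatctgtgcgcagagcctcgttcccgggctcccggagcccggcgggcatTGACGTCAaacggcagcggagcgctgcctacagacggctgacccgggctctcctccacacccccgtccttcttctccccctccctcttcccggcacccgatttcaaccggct
Scg2: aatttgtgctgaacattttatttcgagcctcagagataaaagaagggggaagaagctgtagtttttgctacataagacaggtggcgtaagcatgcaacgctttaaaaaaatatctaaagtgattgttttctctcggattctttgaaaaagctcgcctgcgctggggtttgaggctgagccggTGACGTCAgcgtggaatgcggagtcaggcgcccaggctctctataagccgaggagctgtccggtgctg
Pcsk1: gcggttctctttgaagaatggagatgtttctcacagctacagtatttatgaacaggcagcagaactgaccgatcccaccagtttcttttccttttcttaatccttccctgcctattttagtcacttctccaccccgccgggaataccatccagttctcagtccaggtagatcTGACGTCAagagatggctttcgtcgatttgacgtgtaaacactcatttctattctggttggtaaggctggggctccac
Sstr2: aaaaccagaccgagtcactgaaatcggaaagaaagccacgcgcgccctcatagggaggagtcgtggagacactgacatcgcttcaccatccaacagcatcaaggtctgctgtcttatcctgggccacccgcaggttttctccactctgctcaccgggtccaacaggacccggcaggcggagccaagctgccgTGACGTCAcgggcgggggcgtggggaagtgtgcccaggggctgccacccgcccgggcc
Beside Sst and Cartpt, the differences were -1.24 ± 0.09 (SE, limma, adjusted p = 3.03e-09) for Scg2 (secretogranin II), -0.83 ± 0.10 (SE, limma, adjusted p = 1.07e-06) for Pcsk1 (a prohormone convertase) and -5.17 ± 0.36 (SE, limma, adjusted p = 1.57e-09) for Sstr2 (a somatostatin receptor).

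Transmitter receptors differed subunit by subunit. GABA-A receptors are pentamers whose alpha subunit sets their properties. Of 18 GABA receptor genes 7 were over-expressed in CeHi (38.9% against 35.4% of all genes). The other 11 were under-expressed (61.1% against 35.1%), and the median was -0.58. Gabrd, the delta subunit of extrasynaptic receptors, was higher by 0.97 ± 0.08 (SE, limma, adjusted p = 5.87e-09). Gabra5 was the most under-expressed subunit, with 44.6, 23.2, 26.9 and 144 and 1986, 1714 and 2085, a difference of -5.39 ± 0.45 (SE, limma, adjusted p = 1.25e-07). Gabra2, Gabra3 and Gabra4 were lower by -0.81, -2.46 and -2.20.

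The glutamate receptor list held 26 genes, among them Grid2ip, which encodes a protein that binds a delta receptor and is not itself a receptor. Of the 26, 10 were over-expressed (38.5% against 35.4% of all genes) and 12 under-expressed (46.2% against 35.1%), with a median of -0.28. NMDA receptor subunits differed in opposite directions. Grin2b had 89.1, 126, 67.6 and 104 in CeHi and 964, 1605 and 1383 in StHi, while Grin2c had 13009.5, 12939, 12638 and 11316 and 2924, 2818 and 2349.9. Their differences were -3.77 ± 0.23 (SE, limma, adjusted p = 4.49e-10) and 2.21 ± 0.08 (SE, limma, adjusted p = 1.60e-13). Metabotropic receptors parted in the same way. Grm5 was lower by -4.96 ± 0.26 (SE, limma, adjusted p = 1.09e-09), whereas Grm4 was higher by 2.96 ± 0.13 (SE, limma, adjusted p = 1.89e-11). The AMPA subunit gene Gria4 was higher by 2.72 ± 0.08 (SE, limma, adjusted p = 8.39e-15).

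Cerebellins, secreted proteins that organise synapses, divided by gene. Cbln1 had 33066, 33612, 34728 and 37403 in CeHi and 532, 531 and 551 in StHi, whereas Cbln2 had 13.5, 11.6, 6.48 and 277 and 1839, 824 and 1159. Cbln1 was higher by 6.00 ± 0.12 (SE, limma, adjusted p = 6.61e-16), and Cbln2 and Cbln4 were lower by -5.61 ± 0.97 (SE, limma, adjusted p = 2.24e-04) and -3.33 ± 0.39 (SE, limma, adjusted p = 2.58e-06). In CeHi replicate 3 Cbln2 reached 277, against at most 13.5 in the other 3, and without that replicate its difference was -6.77. The 3 C1q-like genes were all lower.

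Calcium handling was likewise divided. Purkinje cells release calcium from stores through Itpr1 downstream of the phospholipase Plcb4. Of 53 genes tested 19 were over-expressed (35.85%, near the 35.4% of all genes). A further 27 were under-expressed (50.9% against 35.1% of all genes), and the median was -0.28. Atp2a3, a calcium pump of the endoplasmic reticulum, had 10132, 10701, 10984 and 9756 in CeHi and 198, 254 and 189 in StHi and differed by 5.60 ± 0.09 (SE, limma, adjusted p = 1.22e-17). Plcb4 was higher by 2.65 ± 0.09 (SE, limma, adjusted p = 9.71e-14), Pvalb (parvalbumin) by 4.20 ± 0.21 (SE, limma, adjusted p = 3.87e-10) and Calb2 (calretinin) by 2.48 ± 0.25 (SE, limma, adjusted p = 9.47e-07). On the other side stood Camk2a, a kinase of forebrain excitatory synapses, with 4291, 4296, 4654 and 5789 and 101846, 89118 and 88019, a difference of -4.30 ± 0.09 (SE, limma, adjusted p = 5.61e-16). Plcb1 was lower by -1.89 ± 0.11 (SE, limma, adjusted p = 2.27e-10), Ryr3, a ryanodine receptor, by -2.15 ± 0.14 (SE, limma, adjusted p = 1.17e-09), and the T-type channel gene Cacna1h by -4.86 ± 0.22 (SE, limma, adjusted p = 5.02e-11). The P/Q-type channel gene Cacna1a was higher by 1.43 ± 0.08 (SE, limma, adjusted p = 6.59e-11). The calcium pump Atp2b2 did not pass (-0.17, 95% confidence interval -0.33 to -0.00), except without CeHi replicate 1 and with sample quality weights (limma, adjusted p = 0.0135 and 0.0393).

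Potassium channels were split evenly, with 19 genes higher, 20 lower and 1 not passing of 40 (median -0.06, turning to 0.03 under quantile normalization). The shares were 47.5% higher and 50% lower, against 35.4% and 35.1% of all genes. Among the voltage-gated genes 7 were higher and 15 lower, and among inward rectifier and 2-pore genes 9 were higher and 3 lower. Kcnc1, whose channels allow fast firing, was higher by 1.98 ± 0.10 (SE, limma, adjusted p = 8.17e-12). Kcnj4, an inward rectifier, had 23.5, 22.2, 28.7 and 67.6 in CeHi and 7178, 7247 and 6951 in StHi, a difference of -7.77 ± 0.27 (SE, limma, adjusted p = 2.74e-12). Kcnh4 and Kcnq5 were lower by -6.33 and -6.15, and Kcnk10 and Kcnk12 higher by 3.16 and 2.98.

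Transcription factors that pattern the embryonic brain differed by region in nearly every case. Of 21 hindbrain and cerebellar factors tested 20 were over-expressed in CeHi (95.2% against 35.4% of all genes, median 4.35). The exception was Gbx2, which was lower by -4.21. Gbx2 shares 43.5% of its exonic bases with D130058E05Rik, and whether the counting used strand is not known here. Of 22 forebrain factors 21 were under-expressed (against 35.1% of all genes, median -6.99), the exception being Ebf1, which was higher by 2.13. En2, an engrailed gene of the midbrain-hindbrain boundary, had 8257, 7174, 7382 and 7119 in CeHi and 59.7, 149.6 and 164 in StHi, a difference of 6.02 ± 0.26 (SE, limma, adjusted p = 9.57e-11). Its relative En1 had 1068 fragments in CeHi and 6 in StHi. Barhl1, a granule cell lineage factor, differed by 8.10 ± 0.31 (SE, limma, adjusted p = 5.00e-13), Lhx1 by 6.41 ± 0.60 (SE, limma, adjusted p = 5.16e-07), Pax6 by 3.47 ± 0.09 (SE, limma, adjusted p = 4.90e-15) and Zic1 by 4.48 ± 0.38 (SE, limma, adjusted p = 3.23e-07). Zic1 was at 852, 2210.3 and 2194 in StHi, with replicate 0 the lowest. The Dlx genes of GABAergic forebrain neurons were on the other side, with Dlx1 lower by -8.04 ± 0.33 (SE, limma, adjusted p = 9.06e-13), as did Isl1, a D1 neuron factor, by -7.72 ± 0.33 (SE, limma, adjusted p = 1.49e-12) and Bcl11b, which matures medium spiny neurons, by -6.77 ± 0.27 (SE, limma, adjusted p = 3.58e-11).

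Among activity-regulated genes more were lower than higher in cerebellum. Neurons induce these immediate early genes within minutes of activity, and the mice were taken during their active period. Of 31 genes 4 were over-expressed in CeHi (12.9% against 35.4% of all genes) and 16 under-expressed (51.6% against 35.1%). The other 11 did not pass, and the median was -0.41. Fitted on the 7 Hi samples alone, 7 were over- and 17 under-expressed. Egr3 had 5.89, 11.6, 5.56 and 24.3 in CeHi and 1829, 2701 and 2995 in StHi, a difference of -7.81 ± 0.35 (SE, limma, adjusted p = 2.31e-11). Egr1 had 1013, 1087, 989 and 1131 and 9016, 13762 and 14757, a difference of -3.54 ± 0.19 (SE, limma, adjusted p = 5.60e-10), and Arc, a synaptic effector, 940.1, 808, 832 and 858 and 8845, 8032 and 10631, a difference of -3.41 ± 0.20 (SE, limma, adjusted p = 1.28e-09). In StHi replicate 0 Egr1 and Nr4a1 were lower than in the other striatal samples, Nr4a1 with 3498, 6623 and 6088 in StHi and 1173, 1189, 1518 and 1382 in CeHi. The genes higher in CeHi were Ier2 (1.93 ± 0.22 (SE, limma, adjusted p = 1.00e-06)), Atf3 (1.86), Bdnf (1.22 ± 0.16 (SE, limma, adjusted p = 7.50e-06)) and Jun (0.28). Bdnf, a neurotrophin, stood at 1545, 1561, 1316 and 1602 in CeHi and 826, 509 and 629 in StHi. Fos did not overlap between the groups, with 1439.6, 1867, 2045 and 1858 in CeHi and 725, 906 and 929 in StHi, yet did not pass with the spread shared over all 15 samples (1.07, adjusted p = 0.0755). Fitted on the 7 Hi samples alone it passed (log2 difference 1.07, adjusted p = 5.43e-05), and over all alternatives the adjusted p from limma, edgeR or DESeq2 ran from 5.43e-05 to 0.177.

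The retinoid list was mixed, with 7 of 18 genes over-expressed in CeHi (38.9% against 35.4% of all genes), 6 under-expressed (33.3% against 35.1%) and 5 not passing. Retinaldehyde dehydrogenases make retinoic acid, which acts through RAR and RXR receptors. Of 12 genes of synthesis, breakdown and binding 6 were higher, 2 lower and 4 did not pass, and the 3 dehydrogenases were among the higher ones, Aldh1a1 by 3.03 ± 0.08 (SE, limma, adjusted p = 1.90e-15), Aldh1a2 by 2.99 ± 0.38 (SE, limma, adjusted p = 6.13e-06) and Aldh1a3 by 1.54 ± 0.25 (SE, limma, adjusted p = 2.87e-05). Of 6 receptors 4 were lower and Rara was higher. Rxrg had 21.0, 17.9, 25.0 and 50.7 in CeHi and 3134, 3783 and 3809 in StHi, a difference of -7.03 ± 0.30 (SE, limma, adjusted p = 1.24e-11), and Rarb was lower by -2.71 ± 0.12 (SE, limma, adjusted p = 4.46e-12), although 34.1% of its exonic bases are shared with Top2b. The binding protein gene Crabp1 was at 0 in 3 CeHi samples and at 2.11 in replicate 3, with 2 fragments in all against 618 in StHi.

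Housekeeping families differed by small amounts, in opposite directions. Of 80 tested genes for respiratory complexes and the ATP synthase 56 were over-expressed in CeHi (70% against 35.4% of all genes). Another 2 were under-expressed and 22 did not pass (median 0.27). Of 77 cytosolic ribosomal protein genes 3 were over-expressed and 52 under-expressed (67.5% against 35.1% of all genes, median -0.24). The counts moved with the processing. Under quantile normalization 61 and 2 respiratory and 5 and 30 ribosomal genes were called higher and lower, while without CeHi replicate 3 they were 47 and 3 for respiratory and 3 and 61 for ribosomal genes. The ribosomal genes are small and have processed copies elsewhere in the genome, so that single members are uncertain. Rps2 was the most under-expressed, by -1.72 ± 0.08 (SE, limma, adjusted p = 2.48e-12), and Rpl18 one of the 3 higher, by 0.34. The subunit Cox6a2 stood out, with 11 fragments in CeHi against 254 in StHi, a ratio of 36.4 (95% counting interval 20.0 to 73.8), while Cox6b2 was higher by 2.48 ± 0.25 (SE, limma, adjusted p = 1.24e-07).

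Setting the Hi mice against the control line asked whether the region difference depended on selection. In the control line 5743 genes were over- and 5619 under-expressed in cerebellum (74.7% of 15213 called), 10028 genes were called in both lines, and 10018 of these had the same sign. The interaction of line and region passed in 81 genes (0.532%, limma, adjusted p under 0.05, with 1454 genes at an unadjusted p under 0.05). Of the 81, 56 were called in both lines with the same sign, smaller in Hi in 37 and larger in 19. A further 6 were called in both lines with opposite signs, 6 in Hi alone and 13 in Co alone. The count was 42 without StHi replicate 1, 49 without CeCo replicate 0, 50 without StHi replicate 2, 53 without CeHi replicate 2, 54 without StCo replicate 1 and 117 without StCo replicate 2. It was 277 with DESeq2 on the recovered fragments, all 81 genes among them, and 182 with sample quality weights, 79 of them shared. It was 54, 36 of them shared, with the replicate number as a block, under which Npy (limma, adjusted p = 0.0527), Hpcal1 (0.0656), Aldh3a1 (0.0570), Plekhg1 (0.0889), A630081J09Rik (0.0770) and 4930412C18Rik (0.113) no longer passed. In the Hi line same-numbered samples did not deviate together (correlations of residuals -0.0751 to 0.0513). The block may therefore not join samples of the same mouse there. The line of each sample was taken from its label, and no gene was used to check it. Each line is 1 breeding line, so that selection and other differences between the lines cannot be told apart.

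**Figure D5:**
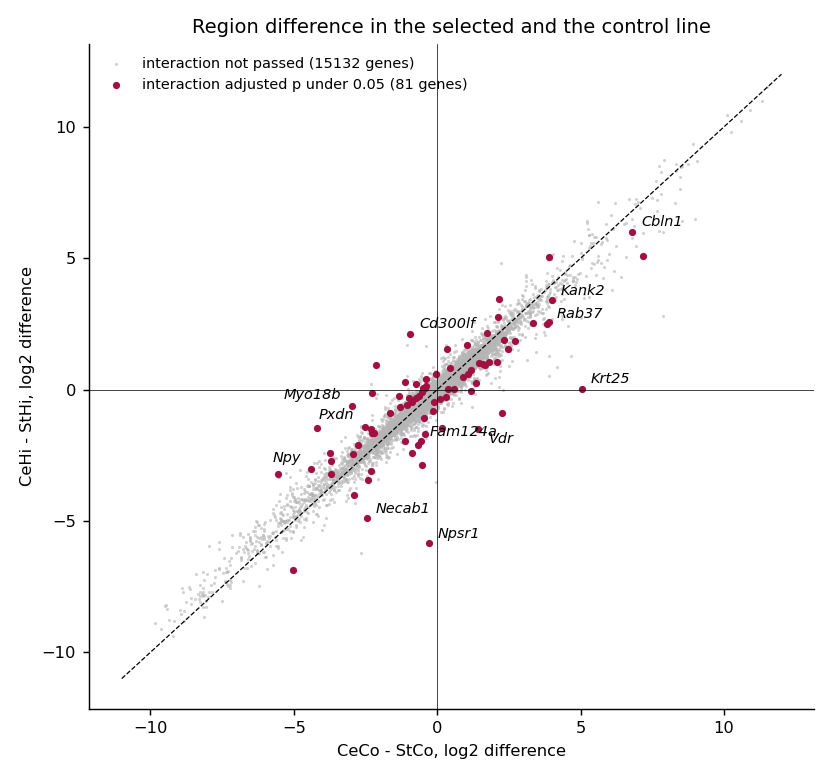
Region difference (Ce minus St, log2) of each tested gene in the control line (x axis) and the Hi line (y axis); red points are the 81 genes whose interaction passed and the dashed line marks equal differences. Most genes follow the line, while Krt25 and Npsr1 lie far below it.

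Genes with a region difference in Hi alone were led by a receptor gene. Npsr1, the neuropeptide S receptor, was at 0 in CeHi replicates 0 to 2 and at 4.23 in replicate 3, against 98.6, 68.0 and 97.4 in StHi. In the control line both regions expressed it, at 79.2, 123, 107 and 109 in CeCo and 133, 170.1, 111 and 101 in StCo, with a region difference of -0.30 (adjusted p = 0.535). The interaction was -5.56 ± 0.62 (SE, limma, adjusted p = 3.75e-04). Col5a2, a fibrillar collagen, was under-expressed in CeHi by -1.45 against a difference of 0.16 in Co, with 531, 605 and 644 in StHi above the 243, 205, 267 and 164 of CeHi. Snhg11, Amigo2 and A630081J09Rik had interactions of -0.69, 0.64 and -2.37, of which that of Amigo2 was lost in 8 alternatives (adjusted p up to 0.0638, without StHi replicate 1) and that of A630081J09Rik in 2 (up to 0.141, under quantile normalization).

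Other genes differed between regions in Co alone. Krt25, a keratin, was 53.0, 70.7, 32.4 and 63.4 in CeHi and 45.4, 56.3 and 53.4 in StHi, overlapping, but 197, 225, 190.3 and 252 in CeCo and 11.1, 6.92, 4.20 and 2.74 in StCo. Its interaction was -5.00 ± 0.45 (SE, limma, adjusted p = 3.20e-05). Tifa also differed in Co alone. Slc35f4 did so too, although its difference in Hi passed without CeHi replicate 1 or StHi replicate 1 (limma, adjusted p = 0.0304 and 0.0464). For 4930412C18Rik the interaction was lost in 13 alternatives (limma, adjusted p up to 0.508), and under quantile normalization its difference in Hi passed (0.97, adjusted p = 2.30e-04).

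Vdr, the vitamin D receptor, turned its direction, with 10.1, 12.7, 13.0 and 6.34 in CeHi and 36.3, 30.1 and 26.1 in StHi against 90.4, 114, 102 and 132 in CeCo and 46.9, 41.5, 29.4 and 43.0 in StCo. Its region difference was -1.50 in Hi and 1.42 in Co, and the interaction was -2.93 ± 0.34 (SE, limma, adjusted p = 3.75e-04). Cntn4, a neuronal adhesion molecule, turned from -0.39 in Co to 0.40 in Hi, with an interaction of 0.79 ± 0.11 (SE, limma, adjusted p = 0.00333). Cd300lf, an immunoglobulin-like receptor of myeloid cells, had few counts, with 14.3, 19.0, 13.9 and 9.51 in CeHi and 1.30, 6.80 and 1.19 in StHi, and lies within the span of Rab37. Rab37 itself was over-expressed in CeHi by 2.51 against 3.84 in Co, with 210.1, 171 and 133 in StHi and 56.8, 57.4, 57.8 and 52.1 in StCo. Aldh3a1 and Plekhg1 had differences of 0.95 and -0.29 in Hi, opposite in sign to Co. That of Aldh3a1 did not pass in 11 alternatives, among them the edgeR and DESeq2 fits and those without any single CeHi sample or without StHi replicate 0 or 1 (adjusted p up to 0.174). The adjusted p of the interaction reached 0.0591 for Aldh3a1 and 0.101 for Plekhg1 when StHi replicate 1 was left out, and that of Plekhg1 was lost in 10 alternatives. Ms4a3 had at most 3 fragments in any of the 7 Hi samples, and no difference is given for it.

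In genes described above the lines differed in degree. Necab1, a neuronal calcium-binding protein, had 247, 187, 183 and 415 in CeHi and 6726, 7076 and 8108 in StHi, against 1485, 2068, 1664 and 1436 in CeCo and 9978, 8846, 7229.8 and 10165 in StCo. Its region difference was -4.90 in Hi and -2.45 in Co, an interaction of -2.45 ± 0.33 (SE, limma, adjusted p = 0.00481). Npy (neuropeptide Y) was 383, 297, 378 and 569 in CeHi and 138, 177, 192 and 159 in CeCo, with 3496, 3229.9 and 3014 in StHi and 4130.0, 3072, 3139 and 3634 in StCo. Its interaction was 1.35 ± 0.24 (SE, limma, adjusted p = 0.0172), lost in 3 alternatives (adjusted p up to 0.0548, without StHi replicate 2). Cbln1 differed by 6.00 in Hi and 6.80 in Co (-0.80 ± 0.16 (SE, limma, adjusted p = 0.0358)) and Hpcal1, a visinin-like calcium sensor, by 2.76 in Hi, more than in Co (0.66 ± 0.12 (SE, limma, adjusted p = 0.0209)). The interaction of Cbln1 was lost in 13 alternatives (limma, adjusted p up to 0.0917, without StHi replicate 2), among them quantile normalization and most fits without 1 sample, and that of Hpcal1 in 5 (up to 0.0748, without StHi replicate 1). Others of the 10 genes with the smallest interaction P-values, Fam124a, Pxdn, Myo18b and Kank2, had interactions of -1.39, 1.10, 2.35 and -0.58, with region differences of -1.97, -1.41, -0.62 and 3.41 in Hi. That of Myo18b did not pass without StHi replicate 2 (limma, adjusted p = 0.0534) or under quantile normalization.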

How the data were processed

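RNA of whole dissected cerebellum or striatum was sequenced as read pairs. The authors aligned the reads with TopHat2 to the GRCm38 (mm10) mouse genome and deposited normalized fragment counts per gene made with Cuffnorm 2.2.1, a signal scaled by a size factor per library, not divided by gene length. The submitters' processing notes also name Cuffdiff. The strand setting of the counting was not given in the sources used here, so reads of overlapping genes cannot be told apart. Low values stepped by a fixed amount within each library, and dividing by this step gave whole fragments, within a tolerance of 0.1, for 99.6% to 99.8% of low values. Intervals and floors based on these fragments cover counting error only.

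The 15 samples were grouped by their labels. Genes with at least 1 count per 1000000 in at least 3 samples were kept (15213 of 26628), and log2(normalized count + 1) with TMM factors was fitted in limma 3.58.1 (R 4.3.3) with trended and robust moderation, 1 mean per group and 1 shared spread. Fold changes are on this scale, which understates the change of low genes. P-values were adjusted by Benjamini-Hochberg over all genes tested. The methods of the study used a count test, so edgeR 4.0.16 and DESeq2 1.42.0 were run on the recovered fragments as alternatives. edgeR called 5396 genes higher and 5320 lower in CeHi, and DESeq2 5360 and 5382.

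Gene lists and members were chosen with earlier results of these data known. The genes named were key members of each list, the 3 largest differences per list and direction, the 10 largest overall in each direction (at least 100 normalized counts in each sample of the higher group), the 10 smallest interaction P-values, the genes called in both lines with opposite signs, the 5 largest called in 1 line alone, genes with overlapping exons, and genes that a sample check rests on. Genes named outside this rule, after their values were seen, were Aldh1l1, Cux2, Dlx5, Drd4, Ebf1, Gabra2, Gabra3, Gabra4, Gbx2, Gng7, Jun, Mog, Pcsk1, Pomc, Rara, Scg2, Slc6a3, Sstr2 and Sstr3. Some genes that the rule names are not reported here. The 2 housekeeping families were defined by gene symbol. RefSeq (GRCm38.p6) matched 22024 genes by symbol and 2551 by an older symbol and gave the promoter windows. Scripts were tested on simulated data. In the control line the same-numbered samples of both regions deviated together (correlations of residuals 0.171 to 0.278 over 4 pairs), and a fit with the replicate number as a block was an alternative.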

Additional observations from a re-analysis of the deposited data

Results flagged for a closer look

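Among 164 genes named in the text with 4 CeHi values, 14 (8.54%) held 1 cerebellar sample far from the other 3. Chance alone marks about 1 group in 20, but many of these genes were named as forebrain markers, so that the share cannot be set against that rate. In 13 of the 14 genes it was replicate 3, the library described above with higher median levels of the D1, D2 and interneuron markers. Its normalized counts, each the highest of the 4 samples, were 208 for Bcl11b, 109 for Drd2, 1067 for Grm5, 67.6 for Kcnj4, 156 for Kcnq5, 179 for Six3, 613 for Sst, 31.7 for Sstr2, 189 for Tac1, 277 for Cbln2, 2.11 for Crabp1 and 4.23 for Npsr1. These 12 genes were all under-expressed in CeHi. Aldh3a1, with 25.4 in replicate 3, was over-expressed. Skor2 stood apart in replicate 2 instead, at 618. The cause was not tested.

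The region difference differed between the lines, by the interaction of line and region in limma, in 23 of the named genes. Each value is the log2 difference in Hi minus that in Co. It was negative for Krt25 (-5.00), Npsr1 (-5.56), Vdr (-2.93), Necab1 (-2.45), A630081J09Rik (-2.37), Col5a2 (-1.61), Fam124a (-1.39), Rab37 (-1.34), Tifa (-1.26), 4930412C18Rik (-1.09), Cbln1 (-0.80), Snhg11 (-0.69), Plekhg1 (-0.60) and Kank2 (-0.58). It was positive for Aldh3a1 (3.07), Cd300lf (3.07), Myo18b (2.35), Npy (1.35), Pxdn (1.10), Slc35f4 (1.06), Cntn4 (0.79), Hpcal1 (0.66) and Amigo2 (0.64).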

How the results depend on the processing

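The counts of genes higher or lower in CeHi stayed within 1.5 times the reported counts under every alternative run, between 5009 and 5344 higher and 5069 and 5363 lower with 1 Hi sample left out. The count of genes whose region difference differed between the lines moved more. It was 81 as reported, 277 with DESeq2 (all 81 among them), 182 with sample quality weights (79 shared), and 42 (without StHi replicate 1) to 117 (without StCo replicate 2) with 1 sample left out. Other low counts came without CeCo replicate 0 (49), CeHi replicate 2 (53), StHi replicate 2 (50) and StCo replicate 1 (54).

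In the Hi line the replicate numbers did not pair the samples, with correlations of residuals between same-numbered samples of -0.0751 to 0.0513. With the replicate number as a block within each line 5290 genes were higher, 5263 lower and 54 differed between the lines (36 shared). CeHi replicate 3 has no striatal sample of the same number and adds nothing to the region difference in that fit.

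Of 164 named genes, 15 changed their call in some alternative and none its direction. Of the 23 interactions 9 were lost in some alternative, with adjusted p-values from limma of up to 0.508 for 4930412C18Rik, 0.141 for A630081J09Rik, 0.101 for Plekhg1 and 0.0917 for Cbln1. Among the lists, oligodendrocyte calls fell from 6 to 3 and ribosomal calls from 55 to 35 under quantile normalization. Depth limits the genes with at most 3 fragments per library, and 3 or 4 samples a group limit small differences. The causes of these changes were not tested.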
